A study of Homo sapiens with 8 samples.

Results

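The transcriptome of HEK293F cells that overexpressed MOV10 was compared with that of cells given an irrelevant siRNA. The members are all genes of the count table with enough reads for a test, 15254 of the 23368 symbols listed, chosen without regard to how they behaved. Of the remaining symbols, 3940 had no read in the 6 libraries compared and 4174 had reads but too few for a test. HEK293F is an established line of human embryonic kidney origin, grown here in DMEM with serum. The 3 overexpression libraries came from cells transfected a single time with a plasmid for myc-tagged MOV10. The 3 control libraries came from cells that received an irrelevant siRNA 3 times, 24 h apart. Plasmid delivery, siRNA delivery and the rise of MOV10 therefore cannot be told apart in this comparison, since an empty plasmid was not among the libraries analysed here. The 2 libraries of cells given MOV10 siRNA on the same schedule entered the fit and are quoted only side by side, because they share the control libraries. The labels do not state that replicates are separate cultures, so the p-values reflect how these libraries scatter, a scatter that may be technical.

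MOV10 is an RNA helicase that moves along single-stranded RNA and unwinds structure in its path. It binds FMRP, the fragile X mental retardation protein, and Argonaute proteins, which carry microRNAs to messenger RNAs. It is also known for restricting retroviruses and LINE-1 retroelements, and it acts with the decay factor UPF1. HEK293 cells carry several neuronal transcripts besides those of embryonic kidney, a known feature of the line.

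MOV10 was at 2970, 2920 and 2450 CPM in the 3 overexpression libraries, against 76.8, 76.4 and 91.2 CPM in the control libraries. CPM is a read count scaled to a common library size with TMM factors. These values check the labels, and reads from the plasmid and from the native gene cannot be separated in them. Of the neighbours of MOV10 in RefSeq gene order, CAPZA1 fell by 0.17 on the log2 scale (SE 0.05), RHOC differed by 0.05 ± 0.07 (edgeR adjusted p = 0.611, or 0.0304 without overexpression library 3) and PPM1J, a protein phosphatase gene, rose by 1.14 ± 0.14.

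Totals ran from 12.7 M to 23.4 M reads over the 6 libraries compared. The first principal component held 78.5% of the variance and separated the groups, with overexpression libraries between 15.1 and 20.5 and control libraries between -18.4 and -16.2. The second component held 11.4% and set overexpression library 2 (9.92) apart from library 3 (-11.2). Over the 7533 genes whose mean log2 CPM reached 5, the median coefficient of variation was 5.42% within the overexpression group and 3.08% within the control group. The overexpression libraries were thus the more variable ones, and library 3 was also the shallowest. Without library 3, 3974 genes were called higher and 3874 lower.

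The response was broad and shallow. A gene was called changed where its p in edgeR's quasi-likelihood test, adjusted by Benjamini-Hochberg over all genes tested, was under 0.05. Of all genes tested, 49.2% were called, 3837 (25.2%) higher and 3671 (24.1%) lower. The median absolute log2 fold change was 0.20, and 90% of genes lay between -0.47 and 0.75. Of the called genes, 353 were at least 2-fold higher and 98 at least 2-fold lower, while 944 higher and 1619 lower genes differed by less than 1.2-fold. In 28.5% of genes every overexpression library lay above every control library, and in 27.5% every one lay below. These shares are the background for every count of members called in the paragraphs that follow.

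The direction of change followed abundance. Genes were split into 5 quintiles of equal size by their mean log2 CPM over the 8 libraries. In the lowest quintile 23.6% of genes were called higher and 8.23% lower, and the median log2 fold change was 0.19. In the second quintile 37.8% were called higher and 12.2% lower. In the highest quintile the order was turned, with 15.7% called higher and 44.7% lower and a median of -0.10. Over the 2 lowest quintiles together 30.7% of genes were higher and 10.2% lower, and over the 2 highest quintiles 18.5% were higher and 38.2% lower. A list of abundant genes therefore starts from more lower calls than a list of scarce ones, and the place of the lists on this scale is given with their counts. A CPM value is a share of a library, so an absolute change of all transcripts could not be seen here. In bulk RNA, fewer cells of a type and less RNA per cell cannot be told apart.

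**Figure D1:**
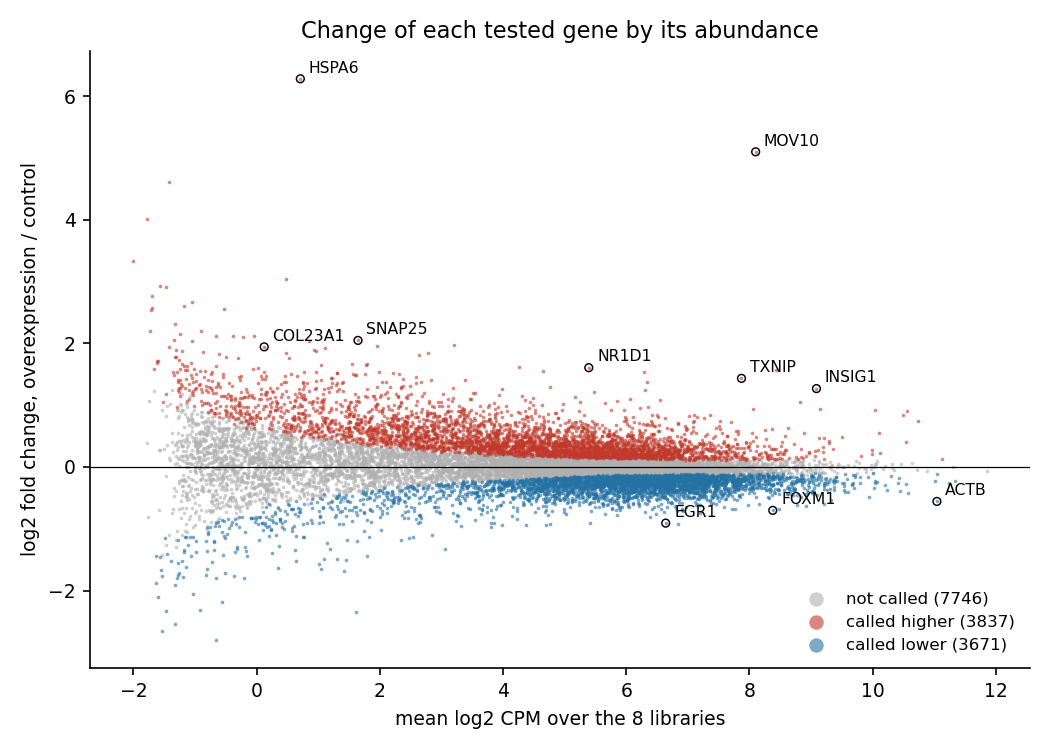
Each point is a gene, with the mean log2 CPM over 8 libraries on the x axis and the log2 fold change of overexpression over control on the y axis; red genes were called higher, blue lower, and grey not called. MOV10 and HSPA6 stand far above all other labelled genes, and most blue points lie at high abundance; F13B, without a read in the overexpression libraries, is not drawn.

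**Figure D2:**
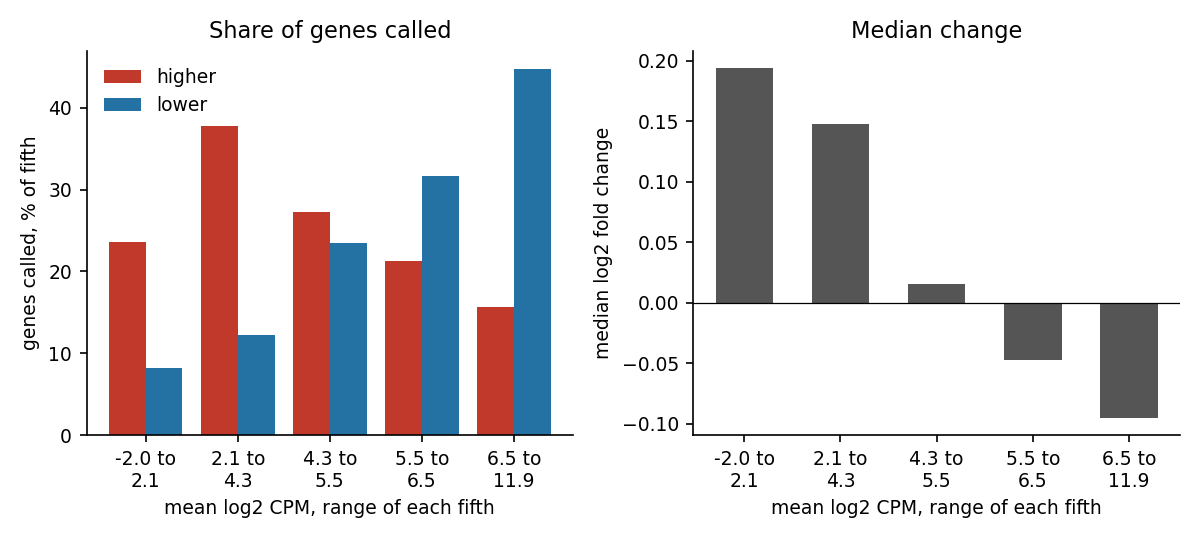
Left, percent of genes called higher (red) or lower (blue) in each quintile of mean log2 CPM; right, the median log2 fold change of the quintile. Higher calls are the more frequent in the 3 less abundant quintiles and lower calls in the 2 most abundant, with medians from 0.19 to -0.10.

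Among genes whose mean log2 CPM reached 5 the leading rises after MOV10 were those of the nuclear receptor gene NR1D1, described with the clock below, and of 2 linker histone genes. H1F0, the linker histone of resting cells, was at 686, 661 and 616 CPM with overexpression and at 213, 214 and 239 CPM in control cells, a rise of 1.56 ± 0.05 on the log2 scale (SE). HIST1H1C rose by 1.54 ± 0.06, and the core histone gene HIST2H2BE, whose reads may be shared with similar copies, by 1.05 ± 0.09. TXNIP, the thioredoxin-interacting protein that restrains glucose uptake, was at 358, 378 and 407 CPM with overexpression and at 136, 142 and 146 CPM in control cells. It rose by 1.43 ± 0.06, and its relative ARRDC3, also an arrestin-domain protein, rose by 1.09 ± 0.07. MDK, which encodes the heparin-binding growth factor midkine, was at 137, 144 and 114 CPM against 48.6, 47.5 and 58.2 CPM, a rise of 1.37 ± 0.09. KLF10, a zinc finger repressor induced by TGF-beta, was at 109, 112 and 122 CPM against 46.4, 50.8 and 47.0 CPM, a rise of 1.25 ± 0.06. For each of these genes the lowest overexpression library lay above the highest control library, which was a condition for naming it here.

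Further rises of about 2-fold were seen in ADAMTS1, a secreted metalloprotease (332 ± 9.25 to 684 ± 34.2 CPM, SD, n = 3 per group), and PLK2, a polo-like kinase (38.5 ± 0.829 to 80.5 ± 2.02 CPM). CRABP2, the carrier of retinoic acid to its receptors, rose from 38.2 ± 3.04 to 78.4 ± 4.68 CPM. The zinc finger gene ZNF184 rose by 1.13 ± 0.06, the endosomal protein gene WDFY1 by 1.10 ± 0.06 and the less described C11orf96 by 1.22 ± 0.08. In the knockdown libraries, set against the same control libraries, WDFY1 differed by 0.99 ± 0.06, KLF10 by 0.98 ± 0.06, TXNIP by 0.79 ± 0.07 and PLK2 by 0.76 ± 0.07, while NR1D1 differed by 0.13 ± 0.10, ADAMTS1 by 0.22 ± 0.07 and CRABP2 by 0.06 ± 0.09. The shared controls mean that these pairs of values are not independent.

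The leading falls among abundant genes were smaller than the rises. TEX261, a membrane protein gene of the secretory pathway, was at 80.2, 81.0 and 69.4 CPM with overexpression and at 149, 141 and 147 CPM in control cells, and fell by 0.92 on the log2 scale (SE 0.06). SEC61A2, a gene for the pore of the endoplasmic reticulum translocon, was at 34.1, 31.9 and 34.0 CPM against 63.1, 63.3 and 61.6 CPM. It fell by 0.91 (SE 0.06) and stood at -0.85 ± 0.06 with knockdown. FOXM1, a transcription factor that drives mitotic genes, was at 247, 265 and 224 CPM against 403, 393 and 404 CPM, a fall of 0.70 on the log2 scale (SE 0.05). Other falls in this class were those of the nucleolar helicase DHX37 (log2 fold change -0.73 ± 0.06), the replication factor CIZ1 (-0.74 ± 0.06) and the synaptic vesicle co-chaperone DNAJC5 (-0.71 ± 0.05). Further genes at this end of the ranking were BTBD6, ATAD3B, RPUSD1, OBFC2B, NELF, C2orf18 and GPATCH4, with log2 fold changes from -0.78 to -0.71. ACTB, the gene for cytoplasmic actin and often used as a reference, was at 1767, 1802 and 1449 CPM against 2518, 2447 and 2420 CPM, a fall of 0.56 on the log2 scale (SE 0.06).

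EGR1, an immediate-early zinc finger factor, was at 60.0, 56.9 and 54.9 CPM with overexpression and at 121, 99.6 and 102 CPM in control cells. It fell by 0.91 on the log2 scale (SE 0.07), and in the knockdown libraries it stood at 0.94 ± 0.07 relative to the same control libraries. The region before its start site is shown because serum response factor acts on it through CArG boxes, written as CC, 6 bases that are each A or T, and GG. This pattern occurred in 1.29% of all RefSeq promoter windows, which run from 250 bases before to 50 bases after a start, and in 1.10% of those of the 11560 tested genes with a window. The stretch at chr5:138465345-138465434 (GRCh38.p14, plus strand, RefSeq), 134 to 45 bases before the start, holds 2 matches, in capitals.
EGR1: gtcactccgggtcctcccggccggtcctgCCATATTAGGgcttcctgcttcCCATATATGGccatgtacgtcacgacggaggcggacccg

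Several genes at a low level in control cells were higher with overexpression. FOXJ1, the master regulator of motile cilia, had 42, 30 and 16 reads in the overexpression libraries and 4, 6 and 4 reads in the control libraries. The ratio of its read rates was 6.19 (95% exact interval 3.50 to 11.8, counting error only). SNAP25, a SNARE protein of neuronal exocytosis, was at 6.34, 5.78 and 6.37 CPM against 1.42, 1.29 and 1.80 CPM, a rise of 2.05 ± 0.16. INHBE, which encodes a hepatic activin subunit, was at 14.1, 13.7 and 13.7 CPM against 3.81, 3.42 and 4.74 CPM, a rise of 1.82 ± 0.14. The Wnt antagonist gene SFRP4 rose by 1.76 ± 0.25. All groups named in these sentences were separate, and of the 1268 tested genes with a control mean under 1 CPM, 285 were called higher and 65 lower. That set was picked by its low control values, and a gene in it can pass the count filter through other libraries. Its excess of higher calls was thus partly fixed by the choice, and genes scarce with overexpression were not counted in the same way.

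Genes without a read in 1 of the groups were looked for as well. F13B, which encodes the carrier subunit of coagulation factor XIII, had no read in any of the 3 overexpression libraries, against 17, 11 and 8 reads in the control libraries and 26 and 10 reads in the knockdown libraries. Its rate in control cells (0.631 CPM) was 12.2 times a floor of 3 reads over the 57.9 M reads of the overexpression group (0.0518 CPM). This ratio leaves out the counting error of the control reads and the scatter of the libraries. F13B was the only tested gene with at least 15 reads in 1 of the groups and none in the other, and it was singled out after its values were seen.

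HSPA6, an HSP70 gene that is silent in most unstressed cells, had 591, 498 and 251 reads against 8, 3 and 5, a ratio of 82.5 (95% exact interval 50.6 to 145, counting error only). Its upstream region is shown because heat shock factors act on it through repeated GAA units in alternating orientation, searched here as GAA, any 2 bases, TTC, any 2 bases and GAA, on both strands. Such a match occurred in 0.487% of all RefSeq promoter windows and in 0.32% of those of tested genes. Of 237 genes at least 2-fold higher with a window, 0.422% had the match. The stretch at chr1:161524427-161524516 (GRCh38.p14, plus strand), 113 to 24 bases before the start, holds 1 match, in capitals.
HSPA6: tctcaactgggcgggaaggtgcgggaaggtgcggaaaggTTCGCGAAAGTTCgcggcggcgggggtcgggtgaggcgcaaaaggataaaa

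**Figure D3:**
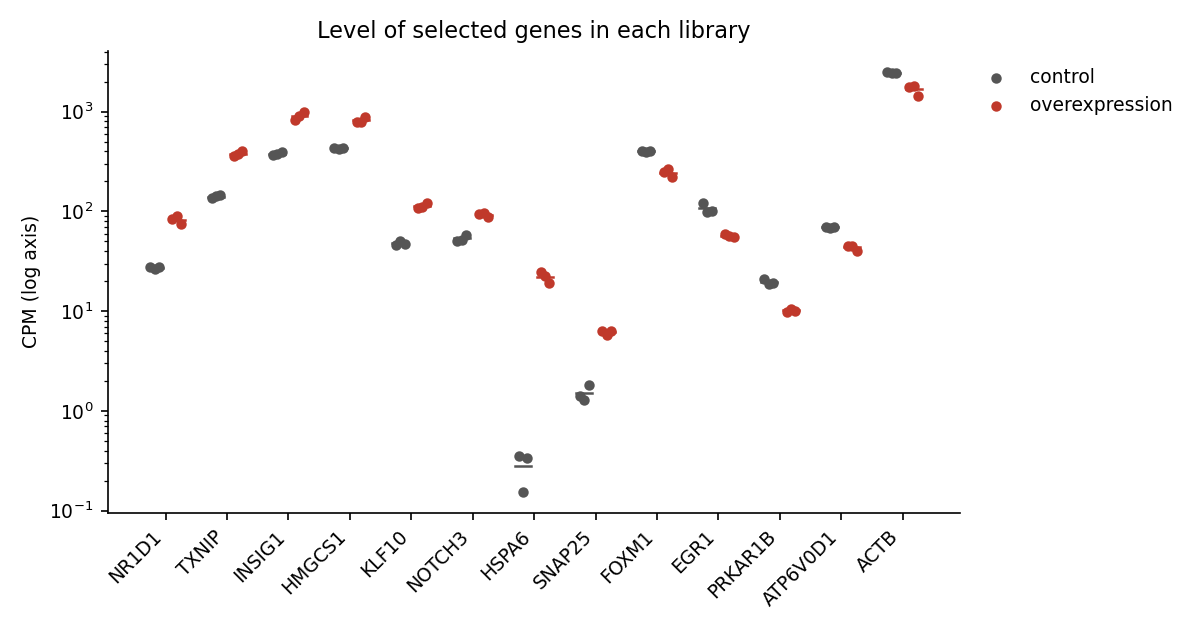
CPM on a log axis of 13 genes described in the text, 1 point per library and a bar at the mean of each group of 3. Overexpression libraries lie above every control library for the first 8 genes and below every one for FOXM1, EGR1, PRKAR1B, ATP6V0D1 and ACTB.

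Most circadian clock genes tested were higher with overexpression. In the clock, CLOCK and ARNTL activate genes through E-boxes, PER and CRY proteins repress them, and NR1D1 and ROR factors form a further loop on ARNTL. Of 25 clock genes tested, 15 were called higher and 3 lower, with a median log2 fold change of 0.31, against 25.2% and 24.1% of all genes. By abundance 6 of the 25 lie in the 2 lowest quintiles and 9 in the 2 highest. Of the 10 repressors and their relatives (PER, CRY, NR1D, BHLHE40, BHLHE41 and C1orf51), 9 rose and PER3 was at 0.13 ± 0.08. NR1D1, the haem-binding repressor Rev-erb alpha, was at 83.3, 89.1 and 75.3 CPM against 28.0, 26.2 and 27.4 CPM, a rise of 1.61 ± 0.08. PER1 was at 80.7, 86.3 and 80.8 CPM against 56.9, 54.4 and 59.4 CPM, a rise of 0.54 ± 0.06. C1orf51, the repressor now named CIART, was at 5.50, 5.51 and 6.14 CPM against 2.70, 2.48 and 3.34 CPM, a rise of 1.01 ± 0.14. PER2 (0.43 ± 0.08) and CRY2 (0.40 ± 0.07) rose to a smaller degree.

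Of the PAR-domain output factors and their antagonist, HLF (0.53 ± 0.09), DBP (0.37 ± 0.08) and TEF (0.31 ± 0.07) rose and NFIL3 differed by 0.04 ± 0.07. RORA rose by 0.52 ± 0.08. RORB was at 0.32 ± 0.12, called in the fit of all libraries but not in DESeq2, after thinning, with offsets for GC content and length, or without overexpression library 1 or 3 or control library 1 or 3. Of the activators ARNTL rose (0.37 ± 0.08) and its paralog ARNTL2 fell (-0.22 ± 0.06), while CLOCK was at -0.03 ± 0.07 (-0.13 and called lower with offsets for GC content and length) and NPAS2 at 0.14 ± 0.08. The kinase gene CSNK1D (-0.15 ± 0.05) and the ligase gene BTRC (-0.18 ± 0.05), which act in PER turnover, fell in the fit of all libraries, calls that ended without control library 1 or with library totals as the scaling for CSNK1D (edgeR adjusted p = 0.0564 and 0.0527) and without overexpression library 1 or control library 3 for BTRC (0.0528 and 0.0621). In the knockdown libraries NR1D1 stood at 0.13 ± 0.10, PER1 at 0.02 ± 0.06 and C1orf51 at 0.18 ± 0.17.

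E-boxes were looked for before the starts of clock genes because CLOCK and ARNTL bind them. The letters searched were CACGTG, which read the same on both strands. Of 21 clock genes with a RefSeq window, 5 (23.8%) held them, namely PER1, TEF, BHLHE40, BHLHE41 and C1orf51, and all 5 were called higher. The share was 9.96% over all tested genes, 7.81% over genes called higher and 13.4% over genes called lower, so the letters were not more frequent among higher genes in general. C1orf51 held 3 copies in the stretch at chr1:150282419-150282508 (GRCh38.p14, plus strand). PER1 is shown at chr17:8152530-8152619 (minus strand) and BHLHE41 at chr12:26125038-26125127 (minus strand), all 5′ to 3′ on the gene's strand with the E-boxes in capitals.
C1orf51: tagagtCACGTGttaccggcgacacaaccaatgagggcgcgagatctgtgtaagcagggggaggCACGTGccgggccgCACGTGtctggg
PER1: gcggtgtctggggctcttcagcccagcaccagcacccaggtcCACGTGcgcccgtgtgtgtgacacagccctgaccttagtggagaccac
BHLHE41: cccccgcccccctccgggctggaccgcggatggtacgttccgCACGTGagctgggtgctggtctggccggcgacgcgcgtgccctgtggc

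The transcripts of the cyclic AMP pathway had no common direction, with 14 higher and 13 lower of 44, of which 19 lie in the 2 lowest and 19 in the 2 highest abundance quintiles. They are described by role, a division made after the values were seen that also takes in 5 genes outside the list (PRKACG, ADCY10, PDE2A, AKAP3 and AKAP8L). Protein kinase A is a tetramer of catalytic and regulatory subunits that dissociates when cyclic AMP, made by adenylyl cyclases and removed by phosphodiesterases, binds. All 7 tested genes for its subunits were called lower. PRKAR1B, a regulatory subunit of neurons, was at 9.84, 10.6 and 10.1 CPM against 20.8, 18.6 and 19.0 CPM, a log2 fold change of -0.94 ± 0.08. PRKACA, the main catalytic subunit, was at 121, 127 and 102 CPM against 160, 151 and 159 CPM, a log2 fold change of -0.42 ± 0.06. The others were PRKACB (-0.54 ± 0.06), PRKAR2A (-0.46 ± 0.05), PRKAR2B (-0.25 ± 0.06), PRKAR1A (-0.16 ± 0.04) and the scarce retrogene PRKACG (-0.78 ± 0.14), whose reads may be shared with its parent gene.

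Of 7 adenylyl cyclase genes tested 6 rose and none fell, among them ADCY5 (0.57 ± 0.11) and ADCY7 (0.59 ± 0.10), while ADCY1 was at 0.02 ± 0.06. Of 16 phosphodiesterase genes, 3 rose (PDE8B by 0.91 ± 0.16, PDE4D by 0.51 ± 0.07 and PDE7A by 0.18 ± 0.07, the last no longer called without overexpression library 3 or control library 1 or 3, in DESeq2 or with a replicate block) and 2 fell (PDE3A and PDE3B), and 11 did not pass the test. RAPGEF3 and RAPGEF4, which encode the other cyclic AMP receptors EPAC1 and EPAC2, rose by 1.03 ± 0.18 and 0.38 ± 0.08. The anchoring protein genes were split, with 3 of 12 higher and 3 lower. The lowest value of the list was that of PKI55 (-1.10 ± 0.13), taken in by its symbol.

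**Figure D4:**
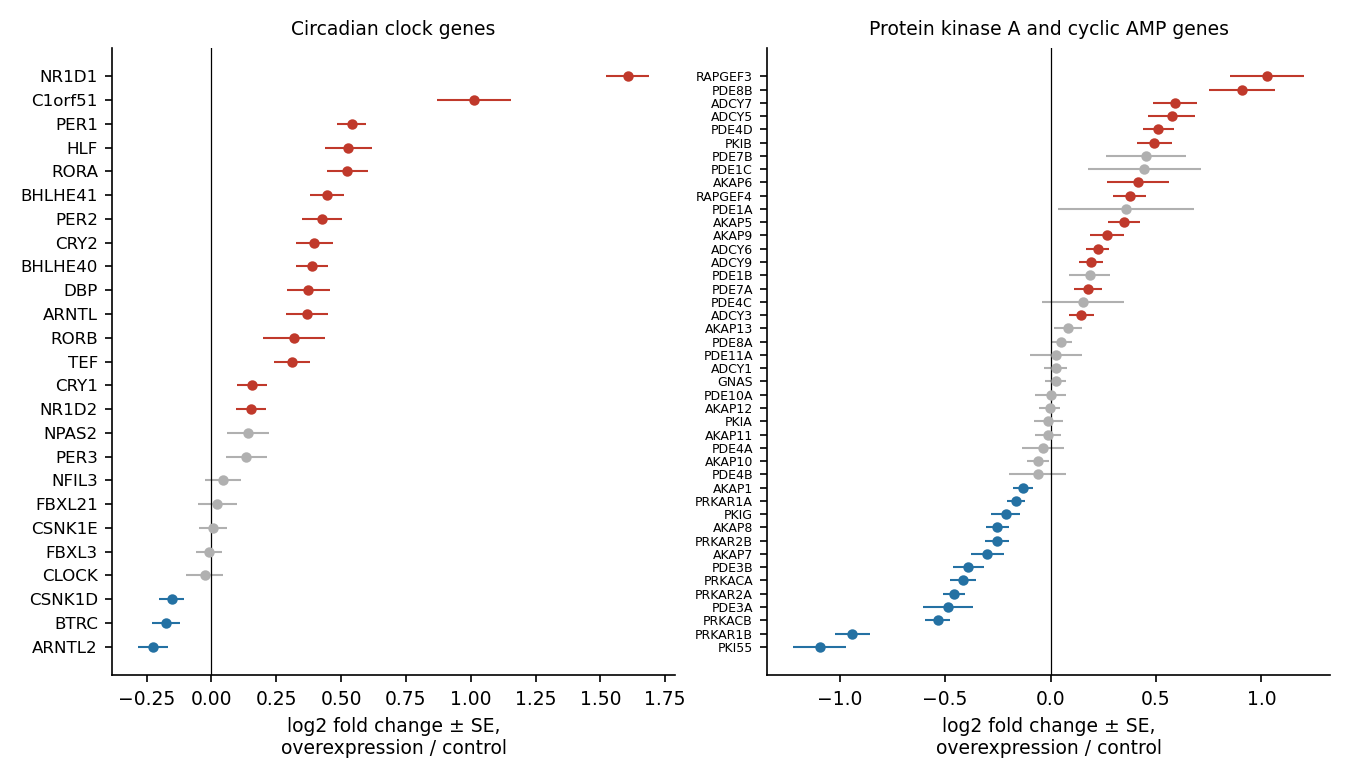
Log2 fold change of overexpression over control with its SE for every tested member of the clock list (left) and of the list of protein kinase A and cyclic AMP genes (right); red was called higher, blue lower, grey not called. Clock repressors fill the upper left panel, led by NR1D1 at 1.61, and in the right panel PKI55 (-1.10) and PRKAR1B (-0.94) are lowest, with all subunits of protein kinase A shown in blue.

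Sterol genes did not move as a block. INSIG1, which holds the sterol sensor SCAP in the endoplasmic reticulum, was at 829, 909 and 1003 CPM against 366, 378 and 394 CPM, a rise of 1.27 ± 0.07. HMGCS1, the synthase that supplies HMG-CoA to the mevalonate pathway, was at 786, 794 and 890 CPM against 435, 419 and 435 CPM, a rise of 0.94 ± 0.05. MSMO1 (0.59 ± 0.06), IDI1 (0.50 ± 0.05) and STARD4 (0.48 ± 0.06) also rose. MVK, the mevalonate kinase gene, fell by 0.35 on the log2 scale (SE 0.08). Of 26 members, 18 of them in the 2 most abundant quintiles, 8 were higher and 4 lower, and the median was 0.01. Fatty acid genes were mixed in the same way (5 higher and 4 lower of 19, with 14 in those quintiles), with rises of ACSL4 (0.58 ± 0.06) and SCD5 (0.42 ± 0.06) and a fall of FADS1 (-0.26 ± 0.05).

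Nuclear genes for mitochondrial proteins had more lower than higher calls, to a degree that differed by list. Of 76 mitochondrial ribosomal protein genes, 38 were lower and 5 higher (median -0.14), and 56 of the 76 lie in the 2 most abundant quintiles, where 38.2% of all genes were lower. MRPS7 fell by 0.59 on the log2 scale (SE 0.05), whereas MRPL36 rose by 0.64 ± 0.06. Of 29 import genes, 22 of them in those quintiles, 15 (51.7%) were lower and 2 higher, among them TOMM40, the channel of the outer membrane translocase, at 84.8, 91.2 and 75.5 CPM against 138, 126 and 129 CPM (-0.64 ± 0.06), and the chaperone gene TIMM10 (-0.73 ± 0.07). Of 38 genes for complex I of the respiratory chain 16 (42.1%) were lower and 3 higher, a share of lower calls near that of abundant genes in general, since 33 of the 38 lie in those quintiles. Without control library 1, 10 were lower. NDUFB2 led them at -0.47 ± 0.06, and NDUFB5 rose by 0.29 ± 0.05. Of 17 ATP synthase genes, 12 of them in those quintiles, 7 (41.2%) were lower and none higher (4 lower without control library 1). All 25 genes for complexes II to IV lie in those quintiles, and 5 were lower, a smaller share than among abundant genes in general, and none higher (8 lower without overexpression library 2). In the tricarboxylic acid cycle SUCLG2 (0.65 ± 0.07) and IDH2 (0.34 ± 0.06) rose and IDH3B (-0.42 ± 0.05) fell, with 3 higher and 8 lower of 19, of which 14 lie in those quintiles.

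Of 25 glycolysis genes 10 were lower and 3 higher. As 20 of them lie in the 2 most abundant quintiles, where 38.2% of all genes were lower, the share of lower calls is close to the background. The called genes included falls of PKM2 (-0.34 ± 0.05), TPI1 (-0.36 ± 0.06) and the glucose transporter gene SLC2A1 (-0.46 ± 0.07) and a rise of the muscle enolase gene ENO3 (0.83 ± 0.11). Hypoxia response genes outside glycolysis, a list that includes the HIF genes HIF1A and EPAS1, were called higher in 12 and lower in 4 of 24 cases. The rises were led by DDIT4 (0.74 ± 0.07) and CA12 (0.91 ± 0.11), although 17 of the 24 lie in those quintiles. Of 30 NRF2 targets and glutathione genes, 16 were lower and 3 higher (median -0.19), and 24 of them lie in the 2 most abundant quintiles. KEAP1, which targets NRF2 for degradation, was at 59.0, 66.3 and 57.9 CPM against 89.3, 88.0 and 84.0 CPM (-0.51 ± 0.06), and PRDX1, a peroxiredoxin, at 363, 361 and 367 CPM against 477, 462 and 455 CPM (-0.35 ± 0.04). The cystine transporter gene SLC7A11 rose by 0.44 ± 0.08. In serine and folate metabolism CTH (0.92 ± 0.07) and SHMT2 (0.73 ± 0.06) rose, with 8 higher and 7 lower of 20, of which 14 lie in those quintiles.

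The largest shares of lower calls were in the lists for the making of ribosomes (65.3%) and for traffic through the nuclear pore (66.1%), against 38.2% of all genes in the 2 most abundant quintiles. Of 49 ribosome biogenesis factors 32 were lower and 2 higher (median -0.18), and 43 of them lie in the 2 most abundant quintiles. UTP20, a component of the small subunit processome, was at 66.2, 57.5 and 60.9 CPM against 99.0, 103 and 92.5 CPM (-0.67 ± 0.06). MYBBP1A (-0.62 ± 0.05), GRWD1 (-0.58 ± 0.06) and UBTF (-0.48 ± 0.05), the last an activator of RNA polymerase I, also fell, and TAF1D rose by 0.60 ± 0.07. Of 56 nuclear pore and transport genes 37 were lower and 2 higher (median -0.16), with 54 in the 2 most abundant quintiles. Of 24 importin and exportin genes, a subset formed after the values were seen, 20 were lower and none higher, with log2 fold changes from -0.38 to 0.03. XPO7 was at 192, 179 and 177 CPM against 237, 240 and 230 CPM (-0.37 ± 0.05), and XPO5, the exporter of pre-microRNAs, fell by 0.38 (SE 0.04). RCC1, the exchange factor for RAN, was at 189, 184 and 169 CPM against 264, 257 and 259 CPM (-0.52 ± 0.05). Of 19 nucleoporins 9 were lower and 2 higher, NUP210 (0.34 ± 0.05) and NUP54.

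Of 27 purine and pyrimidine genes, 23 of them in the 2 most abundant quintiles, 13 (48.1%) were lower and 4 higher, against 38.2% lower in those quintiles. They included the purine enzymes PFAS (-0.51 ± 0.05) and PAICS (-0.30 ± 0.04), the pyrimidine enzyme CAD (-0.32 ± 0.05) and NME1 (-0.52 ± 0.05), whereas PRPS2 (0.49 ± 0.06) and the salvage enzyme gene HPRT1 (0.39 ± 0.06) rose. Of 20 cleavage and polyadenylation factors, 18 of them in those quintiles, 9 were lower and 1 higher. CPSF7 (-0.43 ± 0.05) and WDR33 (-0.34 ± 0.05) fell, and PAPOLG, a poly(A) polymerase gene, rose by 0.29 ± 0.06.

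**Figure D5:**
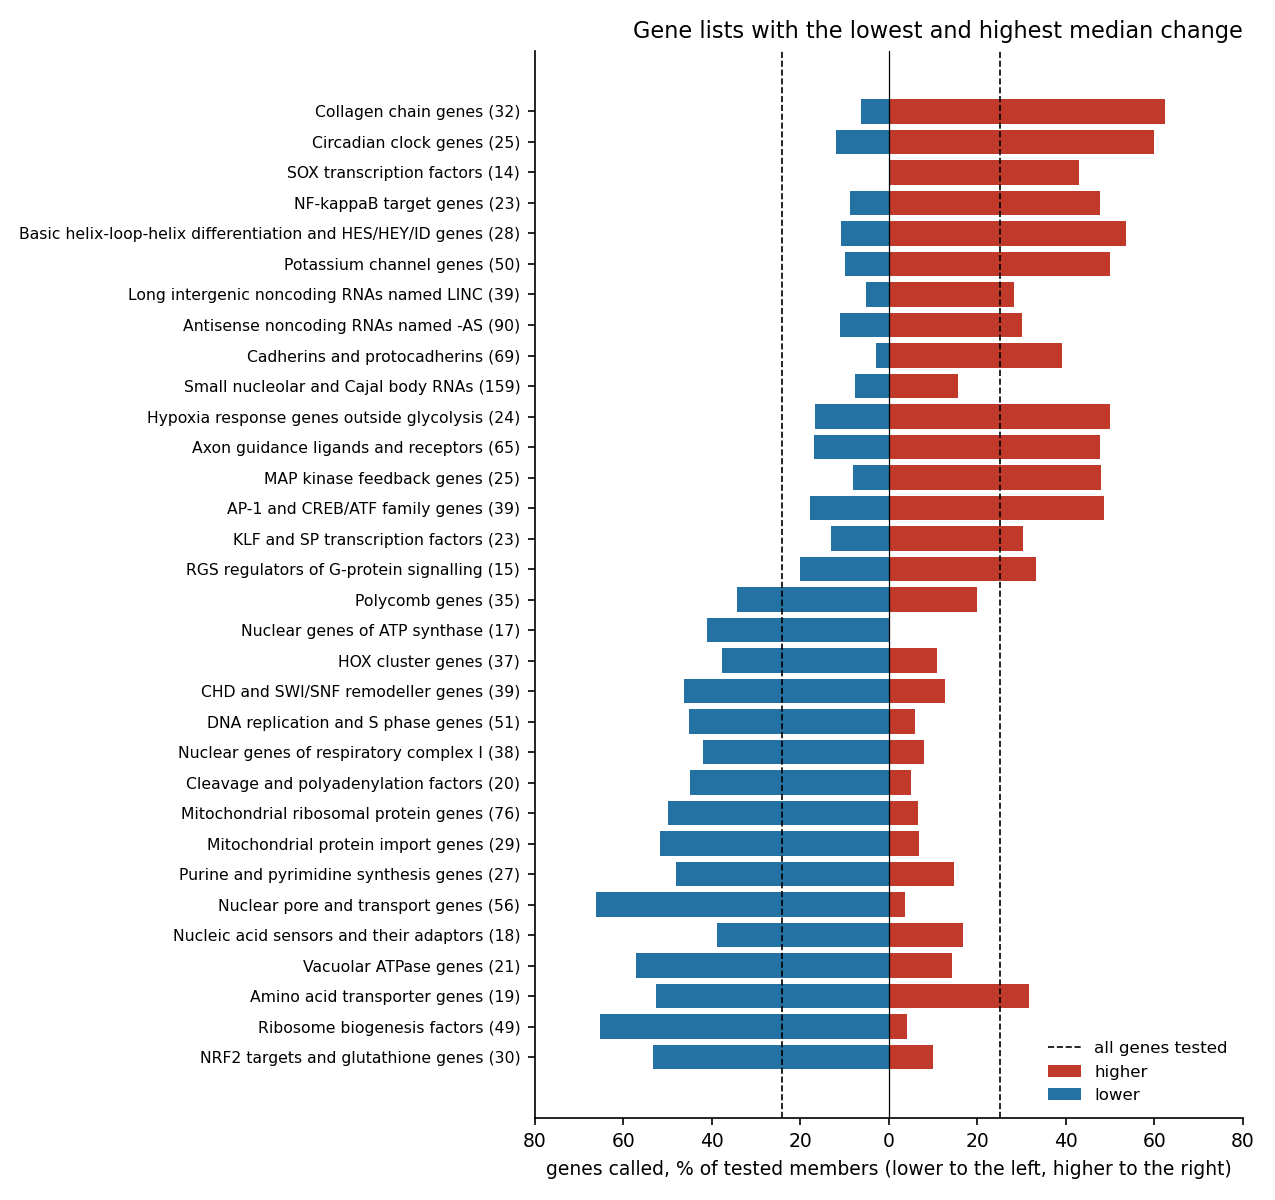
Percent of tested members called lower (blue, to the left) and higher (red, to the right) for the 16 lists with the lowest and the 16 with the highest median log2 fold change among lists with at least 10 tested members, whose number is in parentheses; dashed lines mark all genes tested. Collagen and clock genes reach 62.5% and 60.0% higher, and ribosome biogenesis and nuclear transport genes pass 65% lower.

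Genes of DNA replication and mitosis had more lower than higher calls, with small changes. Of 51 replication genes 23 (45.1%) were lower and 3 higher (median -0.11), 45 of them in the 2 most abundant quintiles. Of the 6 helicase subunit genes MCM2 to MCM7, 5 fell, with log2 fold changes from -0.25 to -0.10, and POLD1 rose by 0.37 ± 0.06. Of 54 mitosis genes 22 (40.7%) were lower and 6 higher, and 50 of the 54 lie in those quintiles, where 38.2% of all genes were lower. Without overexpression library 2, 10 were higher. The phosphatase gene CDC25B was at 77.5, 82.5 and 70.7 CPM against 126, 122 and 124 CPM (-0.69 ± 0.06), and CCNB1, which encodes cyclin B1, fell by 0.35 (SE 0.04). Of 31 cyclin-dependent kinase inhibitors and regulators of entry into the cycle, 22 of them in those quintiles, 13 were higher and 4 lower, inhibitors and drivers of the cycle among the rises. CDKN1A, the inhibitor p21, was at 151, 163 and 142 CPM against 83.6, 86.4 and 88.0 CPM, a rise of 0.83 ± 0.06, and stood at 1.16 ± 0.06 with knockdown. CCND1, which encodes cyclin D1, was at 130, 138 and 136 CPM against 86.8, 85.0 and 89.6 CPM, a rise of 0.63 ± 0.05, and stood at -0.05 ± 0.06 with knockdown. MYC, a driver of growth, rose by 0.55 ± 0.05. Of 55 DNA repair genes, 40 of them in those quintiles, 21 (38.2%) were lower and 9 higher, with a fall of APEX1 (-0.58 ± 0.06) and a rise of DDB2 (0.59 ± 0.07).

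Chromatin genes were counted by class. Of 39 genes in the list of CHD and SWI/SNF remodellers, 35 of them in the 2 most abundant quintiles, 18 (46.2%) were lower and 5 higher. In those quintiles 38.2% of all genes were lower. The SWI/SNF and CHD classes that follow cover only part of this list. Of 21 SWI/SNF subunit genes 13 were lower and none higher (median -0.21), among them SMARCB1, a core subunit, at 156, 165 and 130 CPM against 219, 210 and 216 CPM (-0.51 ± 0.06), and ARID1B (-0.49 ± 0.05). Of 10 CHD remodeller genes 4 were higher, CHD9 by 0.42 ± 0.07, and 1, CHD4, was lower (-0.26 ± 0.05). This division was made after the values were seen, and the difference between the classes was not tested. Of 34 histone deacetylase and lysine demethylase genes, 22 of them in those quintiles, 13 (38.2%) were lower, HDAC1 by 0.43 (SE 0.05), and 3 were higher, KDM6B by 0.41 ± 0.07. Of 35 Polycomb genes, 26 of them in those quintiles, 12 (34.3%) were lower and 7 higher. Of 10 linker and replication-independent histone genes, 9 of them in those quintiles, 3 were higher and 4 lower. H1F0 rose as given above, and the variants H2AFV (-0.54 ± 0.05) and H2AFY (-0.44 ± 0.04) fell.

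Transcription factors are given by family. Of 28 basic helix-loop-helix genes of differentiation and their HES, HEY and ID antagonists 15 were higher and 3 lower (median 0.29), with 14 in the 2 lowest and 10 in the 2 highest abundance quintiles. HES5, a Notch target, was at 34.8, 43.1 and 36.0 CPM against 22.2, 23.2 and 23.5 CPM, a rise of 0.73 ± 0.08, and stood at -0.49 ± 0.09 with knockdown. HES6 (0.62 ± 0.08) and ID4 (0.37 ± 0.05) rose too. Of 14 SOX genes 6 were higher and none lower by edgeR, with 8 in the 2 lowest quintiles, led by SOX9 (0.54 ± 0.06) and SOX8 (0.64 ± 0.13). Of 39 AP-1 and CREB/ATF genes 19 were higher and 7 lower, with 7 in the 2 lowest and 19 in the 2 highest quintiles. JUN rose by 0.47 ± 0.04, and ATF3, a stress-induced factor, was at 257, 252 and 259 CPM against 153, 153 and 157 CPM (0.73 ± 0.05). Within the FOS family FOSL1 rose (0.90 ± 0.16), FOS (-0.50 ± 0.08) and FOSB (-0.93 ± 0.09) fell and FOSL2 was at 0.02 ± 0.07. CREB3L1 (1.07 ± 0.11) and CREB3L2 (0.71 ± 0.05), membrane-bound factors cleaved in the Golgi, rose.

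Of 37 HOX genes 14 (37.8%) were lower and 4 higher, although 16 lie in the 2 lowest abundance quintiles, where 10.2% of all genes were lower, and 5 in the 2 highest. In the HOXA cluster 7 of 11 genes fell and none rose, in the HOXD cluster 3 fell and 3 rose of 8, and in the HOXB and HOXC clusters together 4 fell and 1 rose of 18. The clusters were separated after the values were seen, and the difference between them was not tested. HOXA7 led at -0.73 ± 0.07 and HOXA9 followed at -0.58 ± 0.12. Of 23 KLF and SP genes, 8 in the 2 lowest and 10 in the 2 highest quintiles, 7 were higher and 3 lower, with KLF9, a glucocorticoid-induced factor, at 0.59 ± 0.05 behind KLF10. Forkhead genes were mixed (6 higher and 9 lower of 36, with 17 in the 2 lowest and 14 in the 2 highest quintiles), with falls of FOXQ1 (-0.91 ± 0.09) and FOXD4 (-1.49 ± 0.19), whose reads may be split among near-identical FOXD4 copies.

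Among signalling pathways the Notch genes with the clearest rises were a receptor and its ligands. NOTCH3 was at 94.8, 95.5 and 88.8 CPM against 50.7, 51.7 and 58.4 CPM (0.80 ± 0.06), and the ligand genes DLL1 (0.77 ± 0.08) and JAG1 (0.49 ± 0.06) rose as well. POFUT1, which adds fucose to Notch receptors, fell (-0.43 ± 0.05), and of 30 genes, 9 in the 2 lowest and 13 in the 2 highest abundance quintiles, 10 were higher and 5 lower, with 5 higher without overexpression library 1. In the TGF-beta and BMP pathway, with 19 genes in the 2 lowest and 15 in the 2 highest quintiles, 18 of 50 were higher and 10 lower, the latter 4 to 6 without control library 1, control library 2 or overexpression library 2. GDF15 (1.13 ± 0.16), the receptor gene TGFBR2 (0.46 ± 0.06) and LTBP4 (0.74 ± 0.09) rose, and the co-repressor gene SKI (-0.46 ± 0.05) fell. In the Wnt pathway, with 24 and 16 genes in those quintiles, 18 of 53 were higher and 10 lower, with a rise of the receptor gene FZD4 (0.55 ± 0.06) and falls of FZD10 (-0.53 ± 0.08), GSK3A (-0.55 ± 0.08) and AXIN1 (-0.37 ± 0.06). In the Hedgehog pathway the effector gene GLI1 rose (0.72 ± 0.14) and GLI2 fell (-0.51 ± 0.07).

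MAP kinase feedback genes were more often higher (12 of 25, with 2 lower, and with 10 in the 2 lowest and 9 in the 2 highest quintiles). The rises included SPRY4 (0.61 ± 0.10), SPRED1 (0.55 ± 0.10) and the ETS factor gene ETV1 (0.81 ± 0.10), which is a transcription factor gene and not an inhibitor. Of 23 NF-kappaB targets 11 were higher and 2 lower (median 0.30). IER3 (0.70 ± 0.07), REL (0.70 ± 0.09), RELB (0.62 ± 0.12) and IL8 (1.11 ± 0.19) rose, and 15 of the 23 lie in the 2 least abundant quintiles, where 30.7% of all genes were higher.

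Genes of the cell surface and matrix lie mostly at low abundance, where higher calls were the more frequent. Of 32 collagen chain genes 20 (62.5%) were higher and 2 lower, and the median log2 fold change was 0.46, against 0.16 over all genes of the 2 least abundant quintiles, where 22 of the 32 lie. COL2A1, the fibrillar collagen of cartilage and the most abundant of those named here, was at 204, 207 and 192 CPM against 109, 109 and 118 CPM (0.85 ± 0.05), and stood at 0.96 ± 0.06 with knockdown. COL5A1 (1.19 ± 0.09), COL6A2 (1.08 ± 0.09), COL13A1 (1.12 ± 0.13) and the scarce COL23A1 (1.94 ± 0.27) rose. Of 69 cadherin and protocadherin genes 27 (39.1%) were higher and 2 lower, 53 of them in the 2 least abundant quintiles. DCHS1, a giant protocadherin of planar polarity, was at 13.3, 13.6 and 11.6 CPM against 4.88, 4.56 and 5.21 CPM (1.41 ± 0.11), and CDH23, a cadherin of hair cells, rose by 1.52 ± 0.18. Of 65 axon guidance genes, 35 of them in those quintiles, 31 (47.7%) were higher and 11 lower, with 5 to 7 lower when any 1 control library was left out. PLXND1, a semaphorin receptor, was at 71.8, 77.3 and 68.6 CPM against 37.8, 36.0 and 41.3 CPM (0.93 ± 0.06), and SLIT3, a secreted repellent, at 11.1, 12.4 and 9.66 CPM against 4.39, 3.47 and 4.34 CPM (1.46 ± 0.13).

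Of 50 potassium channel genes 25 were higher and 5 lower, and 16 were higher without control library 1. Of these 50 genes 46 lie in the 2 least abundant quintiles. KCNJ4 rose from 4.01 ± 0.867 to 9.66 ± 1.09 CPM (SD, n = 3 per group), a log2 fold change of 1.31 ± 0.15, and KCNAB2 (1.09 ± 0.10) and KCNQ1 (1.43 ± 0.22) rose too. Of 43 calcium and sodium channel genes, 31 of them in those quintiles, 18 were higher, among them ITPR3 (0.65 ± 0.07) and CACNA1G (0.95 ± 0.11), and 7 lower, led by the neuronal sodium channel gene SCN2A (-1.02 ± 0.16). Of 66 genes of synaptic vesicles and secretion, 32 of them in those quintiles, 26 were higher and 14 lower. The granin gene SCG2 rose by 1.42 ± 0.13, and of 14 synaptotagmins, calcium sensors of vesicle fusion, 6 rose and 1 fell, SYT11 (-0.36 ± 0.06). RGS16, a brake on G-protein signalling, rose by 0.77 ± 0.07.

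The vacuolar ATPase, the pump that acidifies lysosomes and secretory vesicles, was lower in most of its subunits, with 12 lower and 3 higher of 21 (median -0.17). ATP6V0D1 was at 45.4, 45.1 and 40.2 CPM against 69.8, 68.1 and 70.3 CPM (-0.66 ± 0.06), and ATP6V0E2 at 97.0, 101 and 85.9 CPM against 156, 151 and 148 CPM (-0.68 ± 0.06). ATP6V0C (-0.54 ± 0.06), ATP6V1C1 (-0.54 ± 0.05) and ATP6V0A1 (-0.52 ± 0.05) fell by similar amounts, and 17 of the 21 lie in the 2 most abundant quintiles. Lysosomal enzymes and membrane proteins were not shifted as a list (12 higher and 13 lower of 44, with 25 in those quintiles). GUSB (0.69 ± 0.05) and LAMP2 (0.62 ± 0.06) rose and IDS (-0.56 ± 0.05), CTSD (-0.48 ± 0.06) and CTNS (-0.60 ± 0.08) fell. Autophagy genes were balanced as well (9 higher and 9 lower of 36, with 25 in those quintiles), with WIPI1 up by 0.92 ± 0.10 and WIPI2 at -0.38 ± 0.05.

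Lists of genes that act with MOV10 held calls in both directions. Of 22 genes of Argonaute, TNRC6 and microRNA processing proteins, 17 of them in the 2 most abundant quintiles, 5 were higher and 7 lower, with a rise of EIF2C4, which encodes Argonaute 4 (0.26 ± 0.05), and a fall of TARBP2, a partner of Dicer (-0.39 ± 0.07). Of 26 genes of the FMRP family and its RNA-protein partners 7 (26.9%) were higher and 11 (42.3%) lower, with 24 in those quintiles, where 18.5% of all genes were higher and 38.2% lower. FMR1 was at 127, 128 and 135 CPM against 155, 161 and 146 CPM (-0.25 ± 0.05), and YBX1, a cold-shock RNA-binding protein, at 747, 793 and 724 CPM against 1071, 1026 and 1056 CPM (-0.48 ± 0.05). IGF2BP1 (-0.39 ± 0.04) fell, and PURB (0.56 ± 0.05) and NUFIP2 (0.48 ± 0.05), which encodes an FMRP-interacting protein, rose. Of 26 helicases related to MOV10 and factors that restrict retroelements, 7 were higher and 10 lower, and 14 lie in those quintiles. The restriction factor gene TRIM5 (0.65 ± 0.07) rose, as did the scarce APOBEC3G (0.99 ± 0.16, control mean 2.12 CPM) and BST2 (1.47 ± 0.25, control mean 0.610 CPM). The helicase genes DNA2 (-0.26 ± 0.06), IGHMBP2 (-0.26) and UPF1 (-0.12) fell. The other lower calls of this list were SAMHD1 (-0.22), ZC3HAV1 (-0.15), TRIM28 (-0.17), PPHLN1 (-0.21), RNASEH2A (-0.23), RNASEH2B (-0.19) and RNASEH2C (-0.22). Genes that restrict retroelements thus went in both directions. The higher count was 4 without overexpression library 1 or control library 3, and the lower count 6 without control library 1. Of 18 nucleic acid sensors and adaptors, 10 of them in the 2 lowest quintiles, 7 were lower, MAVS by 0.26 (SE 0.05), and 3 higher, the sensor gene IFIH1 by 0.66 ± 0.13. The lower count was 4 without overexpression library 1.

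Noncoding RNAs lie mostly in the 2 least abundant quintiles, where 30.7% of all genes were higher and 10.2% lower. The kit keeps strand, but the strand setting of the counting is not given in the sources used here, so reads of an antisense RNA and of its partner gene may be mixed. Of 90 antisense RNAs named with -AS 27 (30.0%) were higher and 10 (11.1%) lower, shares near that background, and 76 of the 90 lie in those quintiles. Without control library 2, 6 were lower. ZEB1-AS1 was at 31.7, 32.3 and 31.8 CPM against 15.4, 16.5 and 17.8 CPM (0.95 ± 0.07), and ST7-AS1 rose by 1.66 ± 0.17. Of 39 RNAs named LINC, 35 of them in those quintiles, 11 (28.2%) were higher and 2 lower, LINC00472 by 1.14 ± 0.12 and LINC00094 by -0.61 ± 0.07. Small nucleolar and Cajal body RNAs, processed from introns and shorter than most library inserts, were measured in part only, with 159 genes tested, all in those quintiles, 25 (15.7%) higher and 12 lower. Their median log2 fold change was 0.19, and 0.03 with offsets for GC content and length. The higher count was 16 without control library 2, and the lower count 7 without overexpression library 1 or control library 1. SNORD68 rose from 3.07 ± 0.614 to 8.40 ± 1.03 CPM (SD, n = 3 per group). Of 1240 symbols named MIR, 50 were tested, 48 of them in those quintiles, with 6 higher and 4 lower, and their counts stand for hairpin or host transcripts, not for mature microRNAs.

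Features of genes that the choice of members did not use also went with direction. By GENCODE 29 transcript models, 32.0% of genes in the quintile with the lowest GC content were higher and 14.7% lower, and in the quintile with the highest GC content 22.5% were higher and 29.1% lower. When GC content and length were taken out of the counts by smooth offsets, 3577 genes were higher and 5102 lower. The offsets also recentred each library, and the median log2 fold change of all genes tested moved from 0.015 to -0.035. The change in these counts is therefore not that of GC content and length alone. Genes with the longest spans (28.6% higher, 18.9% lower) and the longest 3' UTRs (29.6% and 22.7%) were more often higher than those of the other quintiles of each feature. Single-exon protein-coding genes had 106 (35.7%) higher and 50 (16.8%) lower of 297, against 25.2% and 24.1% of all genes tested. Long intergenic RNAs had 26 (29.2%) higher and 3 (3.37%) lower of 89, a share of higher calls near that of all genes. By chromosome, the share called higher ran up to 34.9% on chromosome 4, with 15.7% lower, and the share called lower up to 33.0% on chromosome 22, with 23.2% higher. Abundance, GC content and gene structure are related to each other, and their separate parts were not tested.

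Promoter letters were compared over the 11560 tested genes with a RefSeq window, searching both strands. The E-box CACGTG was in 14.4% of windows of genes at least 1.5-fold lower (263 genes) and in 7.17% of those at least 2-fold higher (237 genes), against 9.96% overall. In genes above the median abundance the shares were 14.5% for all genes called lower, 7.48% for all called higher and 11.1% for all tested. TATAAA was in 30 of the 237 windows of genes at least 2-fold higher (12.7%) and in 29 of the 263 of genes at least 1.5-fold lower, against 5.96% of all tested genes. Windows with fewer than 10 CG steps made up 29.5% and 35.0% of those same groups, against 12.6% overall. Among genes under the median abundance the shares were 30.8% (227 genes) and 42.4% (203 genes), against 19.1% of all such genes, and among those above it none of 10 genes and 6 of 60 genes, against 6.02%. These are shares of letters in a window and show no binding.

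Markers of other cell types were looked at in all libraries. Of 12 kidney markers 7 were tested, with PAX2, LHX1, SALL1, WT1 and SIX2 among them, and their summed level was 117 to 123 CPM with overexpression and 115 to 121 CPM in control cells. Those 5 were not called, and the other 2 were called higher, EYA1 by 0.36 ± 0.08 and the scarce AQP1 by 1.31 ± 0.34, the latter not after thinning to the shallowest library. PAX8, CDH16, UMOD, AQP2 and NPHS1 had too few reads for a test. Of 10 immune markers 5 were tested, summing to 8.44 to 9.75 CPM against 7.25 to 7.55 CPM, and PTPRC, CD3E, MS4A1, LYZ and NKG7 had too few reads. Of those tested 1 was called higher, CD68 (0.54 ± 0.14, control mean 3.30 CPM), and 0 lower. Of 6 endothelial markers 2 were tested, with sums of 1.38 to 1.84 CPM against 1.55 to 2.26 CPM. Of these the scarce VWF (-1.26 ± 0.42, control mean 0.592 CPM) was called lower and 0 were called higher. None of 6 erythroid genes was tested. Fibroblast markers, which overlap the collagen list, had 4 higher and none lower of 6 tested, with sums of 68.2 to 76.0 CPM against 66.4 to 71.7 CPM, while epithelial markers summed to 309 to 323 CPM against 330 to 337 CPM. Of 7 epithelial markers 3 were nonetheless called higher, CDH1 (0.55 ± 0.10), CLDN7 (0.63 ± 0.20) and CLDN4 (1.26 ± 0.47), and 1 lower, KRT18 (-0.15 ± 0.06). The calls of CLDN7, CLDN4 and KRT18 ended in DESeq2 and without overexpression library 1 or control library 1, among other alternatives. Neuron genes had 5 higher and 2 lower of 10, led by SNAP25, but their sum was lower with overexpression (231 to 238 CPM against 260 to 270 CPM), and the abundant neurofilament gene NEFL fell by 0.46 on the log2 scale (SE 0.05). The part of cell mixture in the results above was not tested.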

How the data were processed

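The authors deposited raw counts of reads per gene symbol for 8 libraries, not normalized. Trizol extracts of 1 ug total RNA entered a stranded TruSeq preparation, per the labels' protocols. The submitters' processing notes list hg19 and, with no order or role, TopHat2 2.0.8, HTSeq 0.5.3p9, Trimmomatic 0.22 and edgeR among the tools, with the strand setting and the treatment of multiple alignments not given in the sources used here. Libraries were assigned to groups by their titles. Counts were filtered with filterByExpr (minimum count 10, minimum total 15), scaled by TMM and tested two-sided with edgeR 4.0.16 (quasi-likelihood, R 4.3.3) in a fit of all 8 libraries, with Benjamini-Hochberg adjustment and a threshold of 0.05. The script was tested on simulated data. No pair of libraries agreed within sampling noise (chi-square per gene 1.87 to 8.01), so each counted as a replicate.

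The gene lists and members were chosen with earlier results of these data known, and no set test was run. Genes named are the 15 highest and 15 lowest by log2 fold change among called genes whose groups were separate and whose mean log2 CPM reached 5, up to 4 members of each list by adjusted p, genes silent in a group, and markers. Some genes that the rule names are not reported here. Further list members and subsets were named for their role after their values were seen. HSPA6, which the rule does not name, was also picked with its values known. Gene features came from GENCODE 29, matched by symbol (20195 by name, 1527 by an older symbol, 1646 unmatched), and promoter windows from RefSeq on GRCh38.p14, a build other than that of the counts. Alternatives used DESeq2 1.42.0, limma 3.58.1 and mgcv 1.9.3. Exact intervals cover counting error only.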

Additional observations from a re-analysis of the deposited data

How the results depend on the processing

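The numbers of genes called higher and lower stayed within 1.5 times 3837 and 3671 under size factors, library totals, other count filters, DESeq2, limma-voom, a fit of the compared groups only, an adjusted p under 0.01, MOV10 left out, thinning to the shallowest library and offsets for GC content and length. Against a fold of 1.2, 1491 genes were higher and 859 lower. Leaving out each library gave 3142 to 3974 higher and 2964 to 3874 lower. With a replicate block 3363 were higher and 3272 lower. Same-numbered overexpression and control libraries did not deviate together (r = 0.031, -0.24 and -0.24 over 12261 genes), so the numbers are not taken to pair libraries. Of differently numbered ones, overexpression library 2 with control library 3 (r = 0.26) and overexpression library 3 with control library 2 (r = 0.245) had the highest values. Deviations are taken from the group mean, so these values are not independent, and what they reflect was not tested. Of the called genes 51.1% were higher, against 60.1% with library totals and 41.2% with offsets for GC content and length (3577 higher and 5102 lower). The median log2 fold change of all genes tested was 0.015, or 0.055 and -0.035 under those scalings, so medians near 0 took either sign, among them those of the cholesterol (0.009, 0.049 and -0.014), autophagy (0.007, 0.047 and -0.049) and MIR-named transcript lists (0.073, 0.114 and -0.063). For 365 named genes, 6917 values under alternatives included 168 calls lost and 2 gained. Among those with a call in the main fit or in the alternative, 0 were of reversed sign. Changes of sign in genes called in neither were not counted. Low counts limit the least abundant genes, where fewer changes of a given size can be called. The cause of these changes was not tested.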
